A study of Mus musculus with 19 samples.

Results

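The genes described here are 42 genes of the presynaptic release machinery, chosen by name as a list of synaptic vesicle and active zone genes, out of 35596 genes to which the deposited transcript tables could be summed. RNA was from the whole vomeronasal organ (VNO), the pheromone-sensing organ of the nasal septum, of female mice at postnatal day 21, and was sequenced as stranded polyA+ libraries with single-end reads of 75 bases. The study removed Smad4, the mediator shared by BMP and TGFβ signalling, from vomeronasal sensory neurons (VSNs) with 2 Cre lines, to ask what the signal does in developing and in mature neurons. In the AP-2ε line, Cre is knocked into Tfap2e and is active in immature basal VSNs. In the OMP line, Cre is knocked into Omp and is active in mature VSNs, both apical and basal. Each line had 3 libraries from Smad4flox/flox mice without Cre (labelled as wild type), 3 from Cre+/- heterozygotes, in which 1 copy of the host gene carries Cre, and 3 conditional knockouts (cKO) that carried Cre+/- and Smad4flox/flox together. Thus 18 libraries in 6 groups were compared, 12 of them controls. A further library, titled as an AP-2ε heterozygote but labelled with the genotype of the cKO, was left out of the groups. The labels name sensory neurons as the cell type, but the RNA was of the whole organ, so fewer cells of a type and less RNA per cell cannot be told apart.

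The release machinery works in steps. Vesicles are filled by a transporter that sets the transmitter, held in reserve by synapsins, and brought to the active zone by Rab3 GTPases and a scaffold of RIM, ELKS, liprin, Bassoon and Piccolo proteins. Fusion is driven by the SNARE proteins, clamped by complexins and started by calcium that enters through presynaptic channels, after which Nsf and Napa take the SNARE complex apart. In VSNs the terminals that hold this machinery lie in the accessory olfactory bulb, while the transcripts are made in cell bodies in the VNO.

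The 18 libraries held between 43385516 and 134042284 estimated counts, with a median of 63096714.5, and the 10 most abundant genes took 16.8% to 32.3% of the counts. Among the cell markers read in the same libraries, those of gland and secretory cells were the most abundant, with a summed level of 113000 to 243000 TPM (a level scaled by transcript length and library total), and the 7 markers of mature vomeronasal neurons summed to 610 to 1430 TPM. Of the 5 brain and bulb markers, Tbr1, Neurod6 and Slc17a7 never reached 1 TPM, and Gad1 and Gad2, which make the transmitter GABA, had means of 1.04 and 0.845 TPM. AP-2ε heterozygote 1 stood apart: its Trpc2, the channel of VSN transduction, was at 50.1 CPM (counts scaled by library total and TMM), against 85.1 to 138 CPM in the 17 others, and its Gnao1, the G protein of basal VSNs, was at 135 CPM against 175 to 246 CPM. In the OMP line, Omp was at 225 to 248 CPM in the heterozygotes and 305 to 474 CPM in the Smad4flox/flox libraries. Tfap2e was at 5.44 to 8.88 CPM in the AP-2ε heterozygotes and 14.0 to 16.6 CPM in the Smad4flox/flox libraries of the line. Smad4 itself was at 54.4 to 62.5 CPM in the OMP cKO and 64.8 to 83.9 CPM in the 6 controls, without overlap but not past the adjusted threshold (adjusted p = 0.909, edgeR). In the AP-2ε line it did not separate the groups, with cKO libraries at 66.1, 66.5 and 33.8 CPM and controls at 39.6 to 81.0 CPM.

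For 3 of the genes described below, the 250 bases before the RefSeq start site are shown, from the GRCm38.p6 assembly. Rab3c was chosen because it passed the adjusted threshold in a comparison given below. Snap91 and Slc17a6 were chosen because all their cKO libraries lay beyond all controls of a line. Cacna1a, chosen for the same reason, had no matched promoter. Genes that did not overlap only between heterozygotes and Smad4flox/flox are not shown. RefSeq promoters were matched for 35 of the 42 genes. Capitals mark the 5-base Smad box CAGAC or its reverse complement GTCTG, which was searched on both strands. The motif was present in 42.2% of all 32851 promoters of this length and in 21 of the 45 promoters of the genes on the list (46.7%). The first is Rab3c, chr13:110280207-110280456, minus strand, a stretch that holds no CAGAC and lies in introns of the Rab3c-202 and Rab3c-204 transcripts:
Rab3c: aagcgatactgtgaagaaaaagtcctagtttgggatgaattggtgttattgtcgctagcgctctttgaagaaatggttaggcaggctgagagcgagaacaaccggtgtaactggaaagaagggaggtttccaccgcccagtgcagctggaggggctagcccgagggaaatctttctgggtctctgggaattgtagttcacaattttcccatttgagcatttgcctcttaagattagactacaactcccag
The second is Snap91, chr9:86880709-86880958, minus strand, with no match and a G and C content of 71.2%:
Snap91: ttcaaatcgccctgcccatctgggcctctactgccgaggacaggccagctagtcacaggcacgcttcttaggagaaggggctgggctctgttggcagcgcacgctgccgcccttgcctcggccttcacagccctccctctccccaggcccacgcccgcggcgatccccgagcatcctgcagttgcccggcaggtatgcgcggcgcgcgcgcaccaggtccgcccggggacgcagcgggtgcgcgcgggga
The third is Slc17a6, chr7:51621580-51621829, plus strand, the more upstream of its start sites, with 1 match:
Slc17a6: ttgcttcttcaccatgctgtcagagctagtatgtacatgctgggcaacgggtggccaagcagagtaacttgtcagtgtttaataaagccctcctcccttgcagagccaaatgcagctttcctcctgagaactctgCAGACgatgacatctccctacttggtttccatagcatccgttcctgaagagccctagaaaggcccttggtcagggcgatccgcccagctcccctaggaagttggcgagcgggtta
The palindromic GTCTAGAC was in none of the 45 promoters of the genes and in 0.167% of all promoters, and these matches are descriptions of letters only.

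The machinery was expressed at very unequal levels. In the 12 controls, 17 of the 42 genes had a mean of at least 10 TPM, 17 lay between 1 and 10 TPM and 8 were under 1 TPM. The SNARE disassembly factor Napa was highest on the TPM scale, at 125 ± 14.5 TPM (SD, n = 12), followed by the vesicle protein Syp at 97.7 ± 24.1 TPM and the vesicle SNARE Vamp2 at 71.9 ± 14.1 TPM. The ranges of Napa (100 to 152 TPM) and Syp (62.2 to 152 TPM) overlapped. By CPM per kilobase of the transcript with most counts, the order became Vamp2 (75.1), Syp (53.9), Snap25 (44.0) and Napa (35.6), so Napa did not lead on both scales. The Rab3a GTPase, at 49.1 ± 10.8 TPM, and the target SNARE Snap25, at 43.3 ± 8.81 TPM, came next.

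Napa was at 100, 139 and 121 TPM in the Smad4flox/flox libraries of the AP-2ε line, 113, 128 and 117 TPM in its heterozygotes and 144, 131 and 152 TPM in its cKO. In the OMP line it was at 108, 120 and 133 TPM, then 133, 131 and 152 TPM, then 139, 131 and 164 TPM in the same order of groups. Its range in the cKO overlapped that in the controls in both lines. Syp was at 108, 90.9 and 93.9 TPM, then 62.2, 111 and 80.8 TPM, then 105, 131 and 141 TPM in the AP-2ε line, and at 79.3, 83.4 and 127 TPM, then 86.1, 97.8 and 152 TPM, then 90.2, 94.4 and 119 TPM in the OMP line. Vamp2 was at 69.5, 70.0 and 81.1 TPM, then 46.8, 67.7 and 73.1 TPM, then 93.5, 75.4 and 85.7 TPM in the AP-2ε line, and at 55.8, 60.4 and 93.2 TPM, then 73.7, 75.8 and 95.9 TPM, then 69.0, 72.5 and 96.8 TPM in the OMP line. For both genes AP-2ε heterozygote 1 was the lowest of the 18 libraries, and the cKO ranges overlapped those of the controls. TPM varied more than CPM between controls for 37 of the 42 genes. For Nsf, the ATPase that drives disassembly, the coefficient of variation was 59.5% in TPM and 5.45% in CPM, so the tests below rest on counts.

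**Figure D1:**
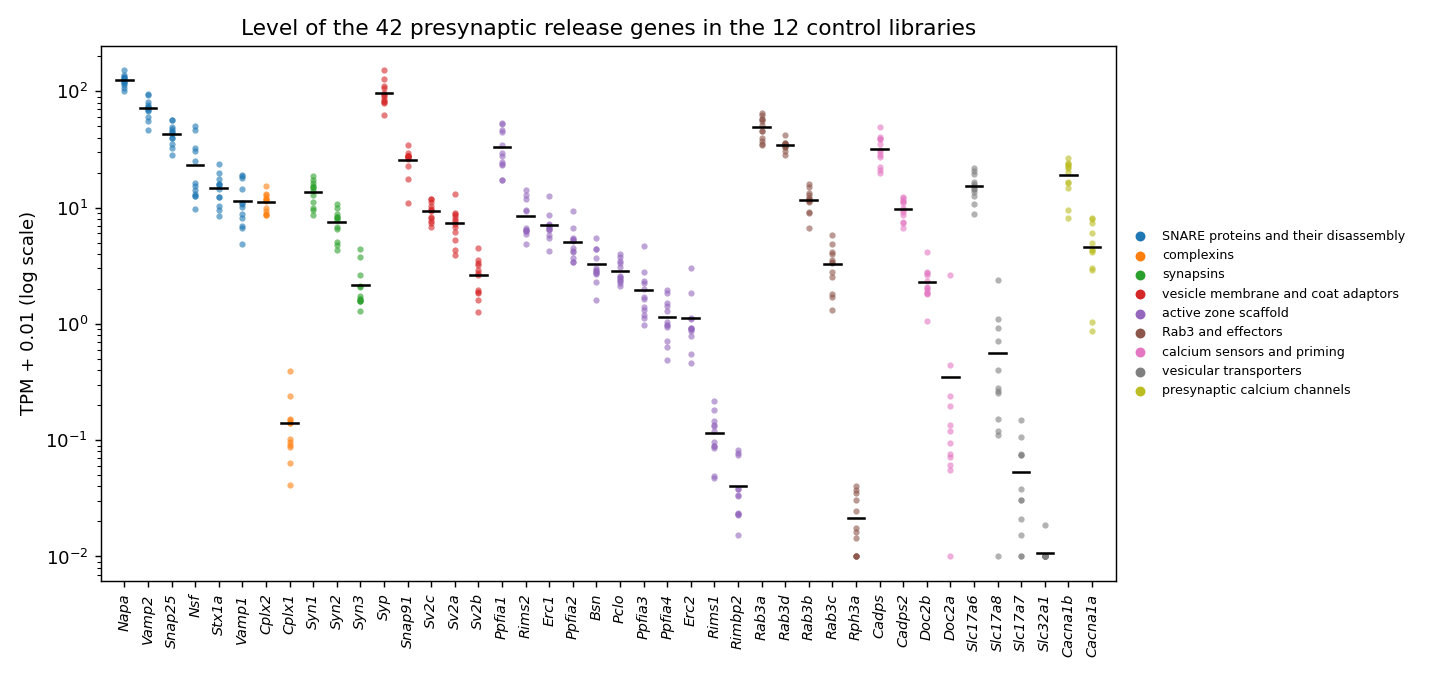
Level of the 42 genes in the 12 control libraries, grouped by role, with TPM + 0.01 on a log scale (y axis). Each point is a library and each bar the mean; Napa, Syp and Vamp2 are highest, and Slc32a1 sits at the lower edge of the axis, where a point at 0.01 is a library listed at 0.

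The paralogs within each role were not equally expressed. Among complexins, Cplx2 was at 11.1 ± 2.11 TPM and Cplx1 at 0.131 ± 0.0936 TPM (n = 12). Among synapsins, Syn1 was at 13.6 ± 3.25 TPM, Syn2 at 7.47 ± 2.04 TPM and Syn3 at 2.16 ± 0.97 TPM. In the active zone scaffold the liprin Ppfia1 was highest at 32.9 ± 13.0 TPM, Rims2 was at 8.40 ± 3.12 TPM and Rims1 at 0.106 ± 0.0505 TPM, and Rimbp2 was at 0.0305 ± 0.0239 TPM. Bsn and Pclo, the largest scaffold proteins, were at 3.24 ± 1.07 and 2.85 ± 0.639 TPM. Among calcium-dependent factors, Cadps was at 31.9 ± 8.87 TPM, Cadps2 at 9.75 ± 1.92 TPM, Doc2b at 2.27 ± 0.764 TPM and Doc2a at 0.337 ± 0.737 TPM, whose highest library (2.65 TPM) carried most of its mean. The P/Q-type channel gene Cacna1a (4.59 ± 2.45 TPM) was lower than the N-type gene Cacna1b (19 ± 5.96 TPM), and their ranges did not overlap. For some genes much of the signal was in transcripts not annotated as coding, which made up 69.4% of the counts of Ppfia4 and 48.8% of those of Vamp1.

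The vesicular transporters name the transmitter that a vesicle carries, and the glutamate transporter Slc17a6 (VGLUT2) was far above the others, at 15.4 ± 3.87 TPM (n = 12). In CPM, Slc17a6 was at 89.9, 71.9 and 77.9 in the Smad4flox/flox libraries of the AP-2ε line, 47.1, 75.9 and 70.6 in its heterozygotes and 79.0, 67.0 and 89.2 in its cKO. In the OMP line it was at 67.7, 63.0 and 77.3 CPM, then 67.8, 69.6 and 73.4 CPM, then 79.6, 83.9 and 98.9 CPM in the cKO, so the 3 OMP cKO libraries lay above all 6 of their controls. Slc17a8 (VGLUT3) was erratic, at 14.3, 3.93 and 1.10 CPM, then 1.49, 1.36 and 0.547 CPM, then 1.14, 5.82 and 3.52 CPM in the AP-2ε line, and 6.23, 5.89 and 0.574 CPM, then 0, 2.09 and 0.395 CPM, then 2.95, 2.11 and 1.03 CPM in the OMP line. Slc17a7 (VGLUT1), the transporter of cortical neurons, lay between 0 and 0.297 CPM in the 18 libraries. Slc32a1, the GABA and glycine transporter, had at most 2 estimated counts in any library and was at 0 in 16 of the 18.

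In the AP-2ε cKO against its 6 controls, no gene of the list passed an adjusted p of 0.05 in edgeR's quasi-likelihood test, while 7 of 18495 genes did (0.0378%). At an unadjusted p under 0.05, 8 of the 39 tested genes passed, 6 higher and 2 lower, against 10.2% of all genes. Fold changes were above 0 for 30 of the 39, against 50.6% of all genes, and their median was 0.08 on the log2 scale, against 0.003 for all genes. Rph3a, Slc17a7 and Slc32a1 were below the filter on low counts. DESeq2 called 309 genes (1.67%), of which 1, Rab3d, is on the list.

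Snap91, the neuronal clathrin adaptor AP180, was at 37.9, 39.4 and 40.6 CPM in the Smad4flox/flox libraries, 35.2, 42.1 and 43.2 CPM in the heterozygotes and 46.4, 44.1 and 46.3 CPM in the AP-2ε cKO. All 3 cKO libraries were above all 6 controls, which 5.06% of the tested genes did in either direction, and the log2 difference was 0.20 ± 0.08 (SE), with an adjusted p of 0.411 in edgeR. Cacna1a was at 4.48, 4.86 and 3.59 CPM, then 4.10, 5.12 and 3.81 CPM, then 5.98, 6.51 and 6.50 CPM in the cKO. The groups again did not overlap, and edgeR put the log2 difference at 0.55 ± 0.15 (adjusted p = 0.309). With counts scaled from TPM by length, the Cacna1a difference was 0.20. These 2 of 39 genes are a share near that of all genes.

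Other genes at an unadjusted p under 0.05 overlapped between groups. The Rab3d GTPase, which is known from secretory granules of exocrine cells, was at 138, 122 and 127 CPM, then 129, 108 and 138 CPM, and 92.7, 108 and 92.6 CPM in the cKO, a log2 fold change of -0.37 ± 0.10 with an adjusted p of 0.292 in edgeR and 0.0237 in DESeq2. With counts scaled from TPM the value was -0.10. The 5 gland and secretory markers moved with it, from 155000 to 243000 TPM in the 6 controls to 113000 to 142000 TPM in the cKO, with 3 of 5 lower at an unadjusted p under 0.05 and none past the adjusted threshold. Their part in the Rab3d result was not tested. Cadps2, which primes dense-core vesicles, had a log2 fold change of -0.33 ± 0.10. Cplx2 (0.27 ± 0.09), the ELKS scaffold gene Erc1 (0.25 ± 0.09), the target SNARE Stx1a (0.35 ± 0.15) and the vesicle glycoprotein Sv2a (0.28 ± 0.12) had positive values. None of these passed the adjusted threshold.

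By role, all 6 SNARE genes, both complexins, all 5 vesicle membrane genes, 10 of 11 scaffold genes and both calcium channels had a fold change above 0 in the AP-2ε cKO, as 50.6% of all genes did. The synapsins were mixed, with 2 above and 1 below, as were the transporters, with 1 above and 1 below. Of the 4 tested Rab3 genes 3 were below 0, as were 3 of the 4 calcium sensor and priming genes. Cplx1 and Doc2a, counted here, had at most 32 estimated counts in any library. Some of the values counted as above 0 were small beside their SE, such as Vamp1 (0.03 ± 0.11), Erc2 (0.03 ± 0.17) and Ppfia4 (0.0 ± 0.24). Neuron markers were read in the same libraries. The 7 immature neuron markers summed to 263 to 342 TPM in the cKO against 153 to 273 TPM in the controls, and the 4 apical neuron markers to 699 to 1030 TPM against 442 to 673 TPM, so that the apical sums did not overlap. The 7 mature neuron markers summed to 1060 to 1430 TPM against 610 to 1060 TPM, and the 4 basal neuron markers to 330 to 464 TPM against 193 to 491 TPM. Gene by gene, none of these markers passed the adjusted threshold in edgeR. At an unadjusted p under 0.05, 2 of 7 immature and 3 of 4 apical markers were higher, 1 of 7 mature markers was higher and 1 lower, and 0 of 4 basal markers differed. The median log2 fold change was 0.31 for the immature, 0.28 for the apical, 0.0 for the mature and -0.04 for the basal list. Sums outside the neuron lists differed too. Immune markers were at 65.6 to 83.2 TPM in the cKO against 42.6 to 59.0 TPM in the controls. Cartilage and bone markers were at 2680 to 3140 TPM against 1280 to 2520 TPM. Both were higher without overlap, while the gland sums given above were lower. The part of any of these markers in the small positive median was not tested. The median of the list was 0.04 without AP-2ε heterozygote 1, 0.05 without AP-2ε cKO 3 and 0.13 without AP-2ε cKO 1. Against heterozygotes alone it was 0.19, and against Smad4flox/flox alone it was 0.04.

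**Figure D2:**
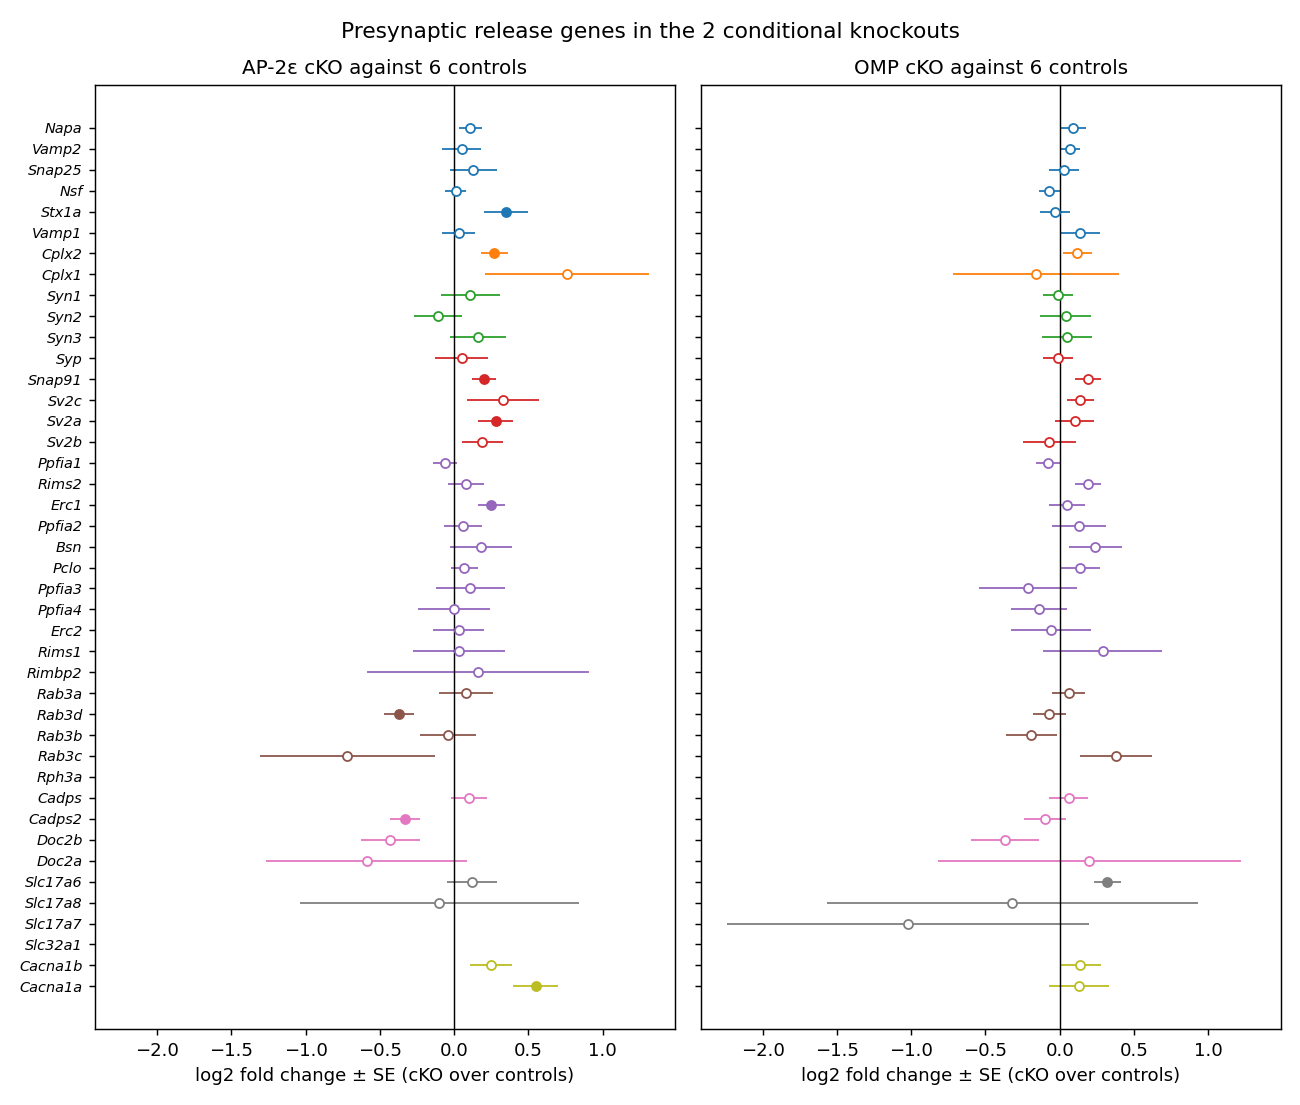
Log2 fold change ± SE of each tested gene in the AP-2ε cKO (left) and the OMP cKO (right) against the 6 controls of the line, coloured by role. Filled points have an unadjusted p under 0.05, which 8 genes had in the AP-2ε cKO and Slc17a6 alone in the OMP cKO; genes without a point were below the filter.

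In the OMP cKO no gene of the list passed an adjusted p of 0.05, and none of the 18623 tested did (0.0%). At an unadjusted p under 0.05 edgeR had 735 genes (3.95%), 1 of them on the list. DESeq2 called no gene of the list either, and its share of all genes in this cKO is not given here. Slc17a6, whose values are given above, differed by 0.32 ± 0.09 on the log2 scale, with an adjusted p of 0.92 in edgeR. It was the 1 of 39 genes whose cKO libraries lay beyond all controls, a share near the 2.35% of all genes. At an unadjusted p under 0.05, 2 of 4 apical neuron markers, Meis2 (0.20) and Gnai2 (0.19), and 2 of 4 basal neuron markers, Robo2 (0.27) and Tfap2e (0.27), were also higher in this cKO, and 2 of 5 markers of basal and proliferating cells, Mki67 (-0.51) and Top2a (-0.52), were lower. None passed the adjusted threshold, and their part in the Slc17a6 value was not tested. Fold changes were above 0 for 23 of the 39 genes, against 48.7% of all genes, with a median of 0.05, which was -0.02 without OMP cKO 3 and 0.03 without Smad4flox/flox library 2 of the line. The SNARE genes lay between -0.07 and 0.14 and the synapsins between -0.01 and 0.05. Snap91 was at 38.3, 36.6 and 46.2 CPM, then 43.1, 43.3 and 47.7 CPM, then 47.5, 46.6 and 51.3 CPM in the OMP cKO, which overlapped the controls. Cacna1a was at 4.66, 5.91 and 6.70 CPM, then 5.87, 5.40 and 5.10 CPM, then 4.14, 7.22 and 7.14 CPM, with overlap in both directions.

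Averaged over both lines, no gene of the list passed the adjusted threshold, while 40 of 19465 genes did (0.205%). At an unadjusted p under 0.05, 7 of 40 tested genes passed, 4 higher and 3 lower, against 9.29% of all genes. Snap91 had the lowest p, with a log2 mean effect of 0.19 ± 0.06 and an adjusted p of 0.278 in edgeR. Cplx2 (0.19 ± 0.06), Cacna1a (0.34 ± 0.13) and Slc17a6 (0.23 ± 0.10) were also positive, and Rab3d (-0.23 ± 0.08), Doc2b (-0.39 ± 0.16) and Cadps2 (-0.22 ± 0.09) negative. Fold changes were above 0 for 28 of the 40, against 49.7% of all genes, with a median of 0.09. That median was 0.04 without OMP cKO 3, 0.05 without AP-2ε cKO 3, and 0.06 without AP-2ε heterozygote 1 or without Smad4flox/flox library 2 of the OMP line, and at most 0.11 with any other library left out. No gene of the list differed between the cKO effects of the lines, a test that 1 gene in all passed (0.00514%).

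Of 83 other genes of vesicle release outside the list, 79 were tested in each line. Of these 1, Unc13c, passed the adjusted threshold in the AP-2ε cKO (0.0378% of all genes did), and none did in the OMP cKO (0.0% of all genes), in edgeR. At an unadjusted p under 0.05, 5 of the 79 were higher and 6 lower in the AP-2ε cKO (13.9%, against 10.2% of all genes). In the OMP cKO 7 of the 79, all higher, had an unadjusted p under 0.05 (8.86%, against 3.95% of all genes). Unc13c, which codes for the priming factor Munc13-3, was higher by 1.74 ± 0.22 on the log2 scale in the AP-2ε cKO (adjusted p = 0.0353, edgeR). In the OMP cKO it was higher by 1.69 ± 0.19 (adjusted p = 0.0503, edgeR). The heterozygotes also lay above Smad4flox/flox, by 0.59 ± 0.20 in the AP-2ε line (adjusted p = 0.867, edgeR) and 0.20 ± 0.23 in the OMP line. Over both lines 2 of 80 tested genes passed, against 0.205% of all genes. The log2 mean effect of Unc13c was 1.73 ± 0.13 (adjusted p = 1.06e-05, edgeR), and the synaptotagmin gene Syt13 also rose, by 1.90 ± 0.31 (adjusted p = 0.0185, edgeR).

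The gene of the list that differed between groups was Rab3c, a GTPase of synaptic vesicles. It was at 42.9, 30.4 and 34.3 CPM in the Smad4flox/flox libraries of the AP-2ε line, 5.48, 10.1 and 10.1 CPM in its heterozygotes and 14.2, 10.2 and 16.1 CPM in its cKO. In the OMP line it was at 26.0, 27.7 and 39.2 CPM, then 23.5, 22.0 and 24.6 CPM, then 24.5, 30.4 and 51.3 CPM. Thus the 6 AP-2ε libraries with Cre were all below the other 12. This grouping was made after the values were seen, and the share of all genes that separate this way was not computed. In the test over the 6 groups Rab3c was the 1 gene of the list that passed (adjusted p = 0.00729, edgeR), among 149 genes in all (0.765%), and 4 of 40 genes of the list had an unadjusted p under 0.05, against 10.5% of all.

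In AP-2ε heterozygotes against Smad4flox/flox, Rab3c fell by 2.07 on the log2 scale (SE 0.26, adjusted p = 0.0453, edgeR), and 9 of 18495 genes passed (0.0487%). The call was near the threshold: it held under 5 of 9 alternative settings, DESeq2 among them (adjusted p = 2.54e-12), and was lost in edgeR under 4, namely counts scaled from TPM (-1.35, adjusted p = 0.165), a replicate block (adjusted p = 0.172), the form of the library name as a covariate (adjusted p = 0.0855) and protein-coding transcripts only (adjusted p = 0.0782). It was also lost without 8 of the 9 libraries of the line in turn, while the value stayed between -2.21 and -1.83. Without AP-2ε heterozygote 1 it was -1.83 (adjusted p = 0.0315, edgeR). The transcript Rab3c-201, which held 90.6% of the gene's counts, went from 27.4 to 36.2 CPM without TMM scaling in the Smad4flox/flox libraries to 3.54 to 9.36 CPM in the heterozygotes. Rab3c lies at chr13:110054187-110280996, and its tested neighbours within 1000000 bases, Pde4d (-0.16), Gapt (-0.25) and Plk2 (0.15), had unadjusted p-values of 0.283 to 0.696 in edgeR. Of the 9 genes that passed in this comparison 8 were lower, and 4, Rab3c included, lie on chromosome 13 (44.4%), which holds 3.98% of the tested genes. This count was made after the calls were seen, and no test was run on it. Of the 4 basal neuron markers 3 were lower at an unadjusted p under 0.05, and their summed level was 193 to 393 TPM against 400 to 491 TPM. One of the 3, Tfap2e (-1.03), is the gene that carries Cre in these heterozygotes, and the others are Gnao1 (-0.38) and the axon guidance receptor gene Robo2 (-0.49). The part of these markers in the Rab3c result was not tested.

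The cKO of the AP-2ε line carries the same Cre allele, and the choice of control set the sign for Rab3c. Against Smad4flox/flox alone the log2 fold change in the cKO was -1.42 (adjusted p = 0.0689, edgeR) and against heterozygotes alone it was 0.66 (adjusted p = 0.537, edgeR), with -0.72 ± 0.59 against both. In OMP heterozygotes against Smad4flox/flox, the value was -0.42 ± 0.26 (adjusted p = 0.872, edgeR). The difference between the heterozygote effects of the lines was -1.66 ± 0.39, with an unadjusted p of 0.000743 and an adjusted p of 0.603 in edgeR, in a test that 0.0257% of all genes passed. That the fall belongs to the AP-2ε line is therefore not shown after adjustment.

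**Figure D3:**
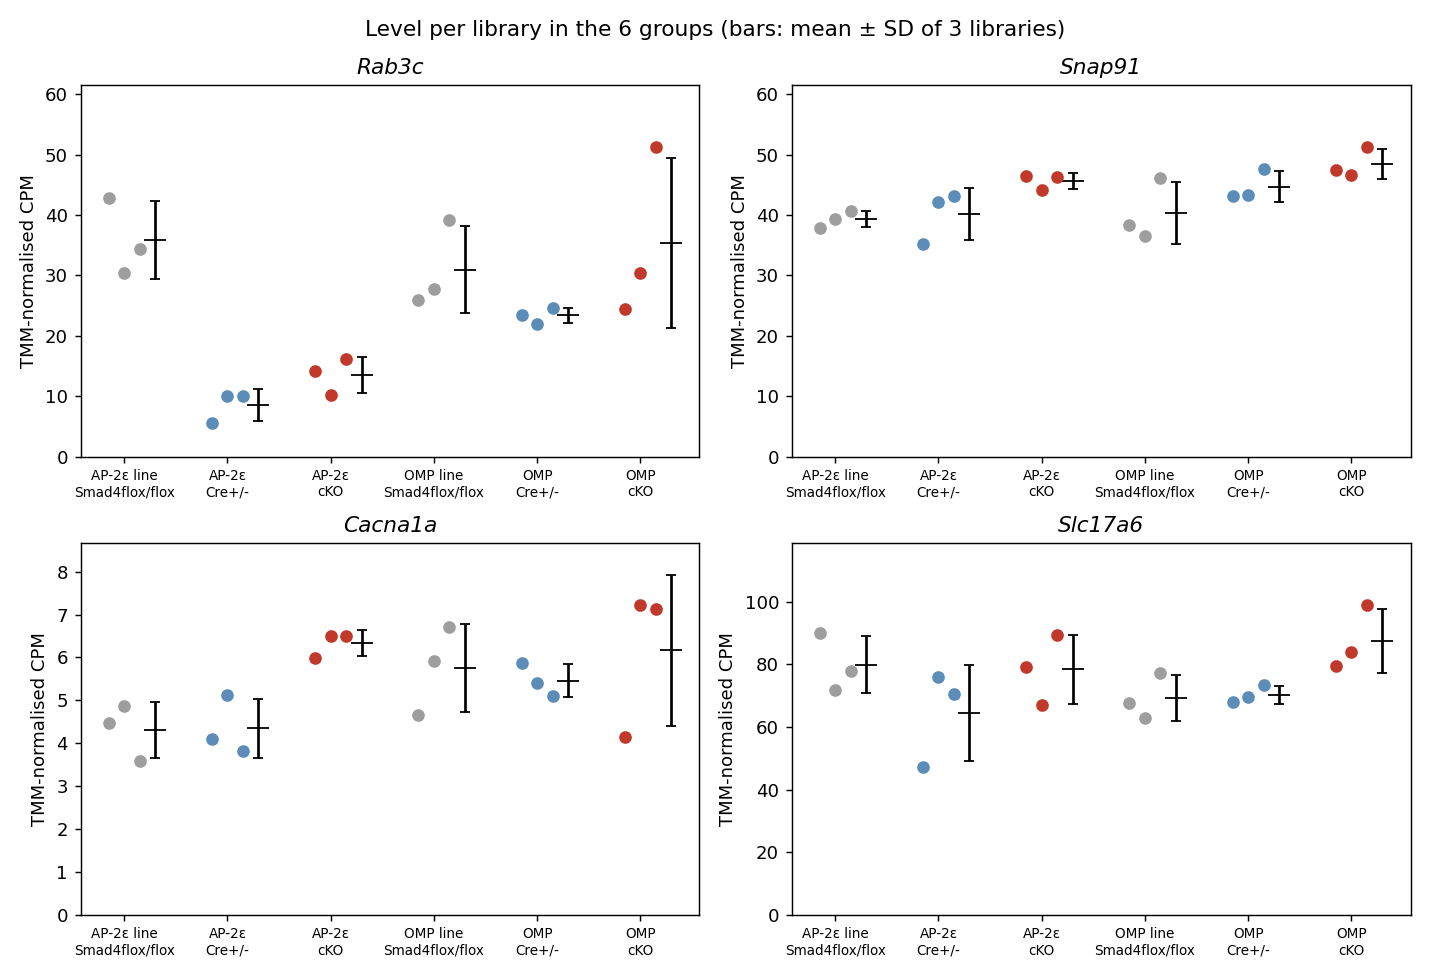
Level of Rab3c, Snap91, Cacna1a and Slc17a6 in TMM-normalised CPM (y axis, from 0) in each of the 18 libraries, by group, with the mean ± SD of 3 libraries as bars. Rab3c is at 5.48 to 16.1 CPM in the 6 AP-2ε libraries with Cre and at 22.0 to 51.3 CPM in the others.

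Over the 39 tested genes of the list, Rab3c included, AP-2ε heterozygotes had a median log2 fold change of -0.07 against Smad4flox/flox, with 14 above 0 against 51.5% of all genes. At an unadjusted p under 0.05, 5 of 39 passed, against 5.47% of all genes: Rab3c, Syn3 (-0.49 ± 0.17), Slc17a8 (-2.50 ± 0.89), Vamp2 (-0.28 ± 0.12) and, in the other direction, Ppfia4 (0.55 ± 0.24). The groups did not overlap for 5 genes of the list, against 9.92% of all genes, and 3 against 3 allows no exact p under 0.1. Without Smad4flox/flox library 1 of the line the Slc17a8 value was -1.16, and without AP-2ε heterozygote 1 the Vamp2 value was -0.17. The median was -0.03 without AP-2ε heterozygote 1, -0.17 without heterozygote 2 and -0.13 without heterozygote 3, and -0.04 and -0.12 without Smad4flox/flox libraries 1 and 3. In OMP heterozygotes no gene of the list passed, while 14 of 18623 genes did (0.0752%). There, 2 of 39 had an unadjusted p under 0.05, Cplx2 (0.25 ± 0.09) and the ELKS gene Erc2 (0.65 ± 0.25), against 5.84% of all genes, 26 of 39 were above 0, against 47.0%, and the groups did not overlap for 4, against 11.5%.

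Library by library, the median deviation of the 35 genes with a mean of at least 1 CPM from the 6 controls of their line was lowest in AP-2ε heterozygote 1, at -0.283 on the log2 scale, and lay between -0.165 and 0.239 in the others. In that library Syp was at 80.4 CPM against 118 to 165 CPM elsewhere. The names of the deposited libraries take 2 forms, which are not said to be a batch. Within the larger form the AP-2ε cKO median was 0.15, with 27 of 35 genes higher, and within the other, with 1 cKO library and 2 controls, it was 0.04, with 23 of 35 higher. For the OMP line the values were 0.03 (21 of 35) and 0.12 (27 of 35). The share of all genes that were higher within each form was not computed, so these counts of genes are descriptions only. For Rab3c in AP-2ε heterozygotes against Smad4flox/flox, the log2 difference was -2.13 within the larger form (2 libraries against 2) and -1.67 within the other, which holds 1 library of each group and allows no test.

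**Figure D4:**
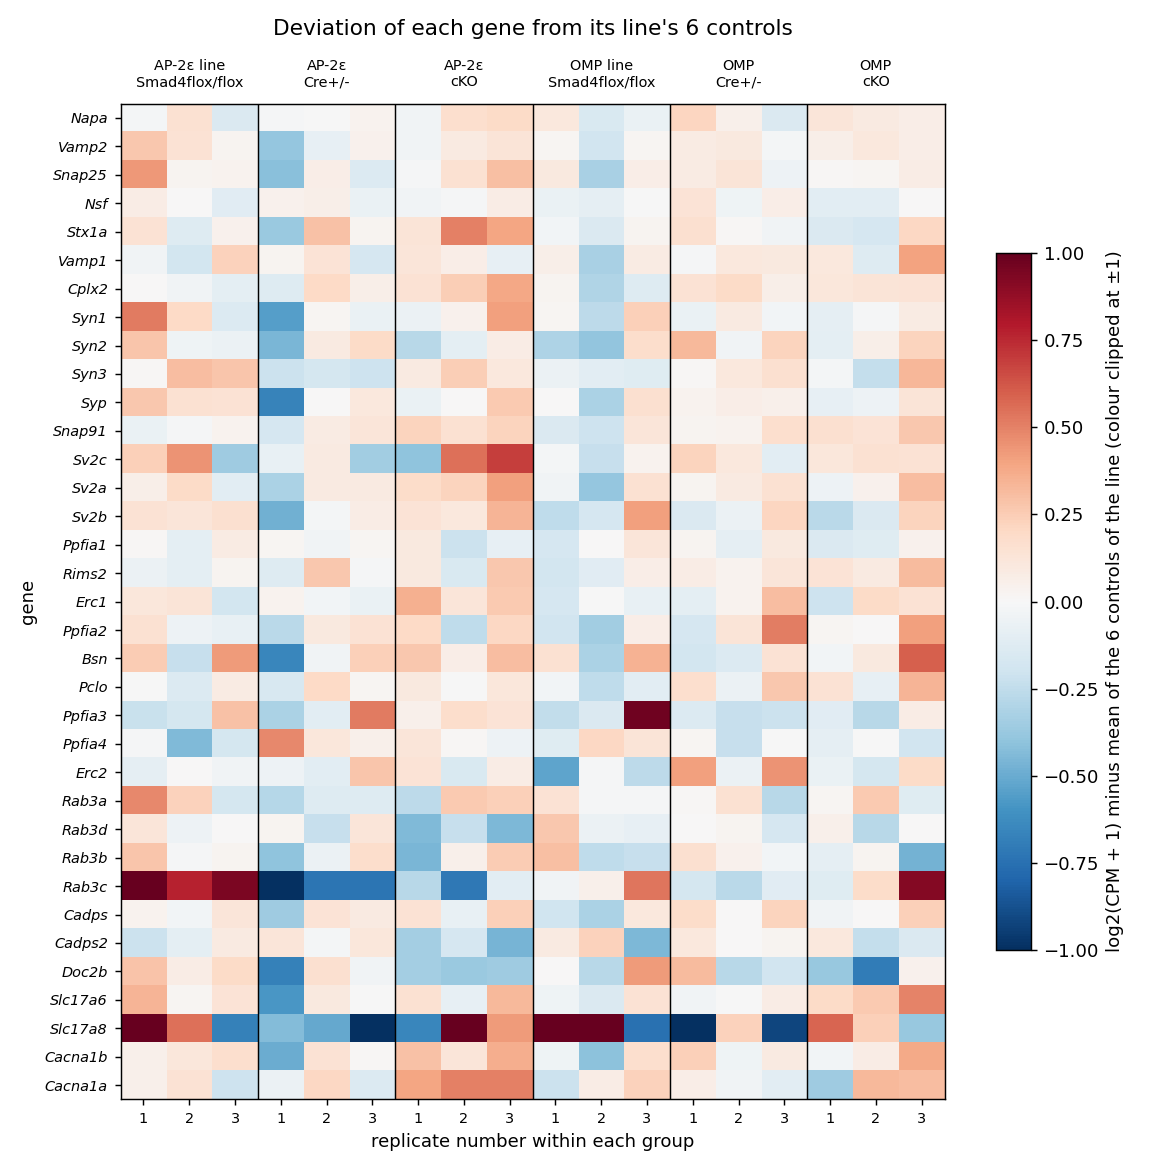
Deviation of 35 genes with a mean of at least 1 CPM (rows, by role) from the mean of the 6 controls of their line, in log2(CPM + 1), for each of the 18 libraries (columns, by group and replicate number), with colour clipped at ±1. Rab3c is blue in the AP-2ε heterozygotes and in AP-2ε cKO 2, pale in AP-2ε cKO 1 and 3, and red in the Smad4flox/flox libraries of the line. AP-2ε heterozygote 1 is blue for most genes.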

How the data were processed

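RNA of the whole VNO was quantified by the authors with Salmon 0.14.0 against mouse transcripts of the GRCm38 (mm10) build, and the deposited tables hold, for each of 116248 transcripts, an expected count and a TPM value per library. The study's methods describe a coding-sequence set, but 115995 transcript lengths equal the full GENCODE vM21 length, so UTRs were counted. The submitters' notes also name DESeq2 1.22.2.

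Expected counts were summed per gene through GENCODE vM21 (116072 transcripts paired with a gene) and rounded. Genes were filtered with filterByExpr, scaled by TMM and tested with the quasi-likelihood test of edgeR 4.0.16 (R 4.3.3) over all genes, with Benjamini-Hochberg adjustment and a threshold of 0.05. Each cKO was tested within its line against its 6 controls, and both lines were joined for the mean effect, the difference between lines and the 6 groups. Levels between genes were compared by the authors' TPM. CPM values were TMM-scaled, with a pseudocount of 1 for log2 values. Exact permutation tests over libraries (84 splits for 3 against 6) were run but are not quoted, since genes named for groups that do not overlap lie near the smallest p by that choice. In simulated counts with 200 genes changed by 1 on the log2 scale, the AP-2ε cKO test recovered 67% of them and the OMP cKO test 53.5%. False calls were 11 and 2. Smaller changes, which most genes of the list had in the cKO, were not simulated, so their recovery is not known. Alternatives were DESeq2 1.42.0, its size factors, other filters, counts scaled from TPM by length, either control alone, all libraries in 1 fit, a replicate block, the library name form as a covariate and each library left out. Counting of protein-coding transcripts only, CPM per kilobase and the difference between heterozygote effects were added after the data were seen.

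The genes named in full were those with an adjusted p under 0.05 in any comparison, those whose cKO libraries lay beyond all controls of a line at an unadjusted p under 0.05, the 3 of highest TPM and the vesicular transporters. The list, its role groups and the other lists were chosen with earlier results of these data known. The titles call the libraries of a group biological replicates, and whether each came from 1 animal or from pooled animals is not given in the sources used here. The 1 library with conflicting labels entered no comparison but 2 alternatives.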

Additional observations from a re-analysis of the deposited data

How the results depend on the processing

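No gene of the list was called in either cKO, in the mean effect or in the difference between lines under any edgeR alternative. DESeq2 called 1 in the AP-2ε cKO (Rab3d), against 0 in edgeR. The count for AP-2ε heterozygotes, 1 (Rab3c), became 0 with counts scaled from TPM by length, with the library name form as a covariate (adjusted p = 0.0855, edgeR), with protein-coding transcripts only (adjusted p = 0.0782, edgeR) and with a replicate block (adjusted p = 0.172, edgeR), and lay between 0 and 1 when each library was left out. The cause of these losses was not tested. Over the 6 groups the count was 1 and rose to 2 with the library name form as a covariate, which added the vesicle glycoprotein gene Sv2b (adjusted p = 0.0493, edgeR). The share of all genes that passed with this covariate is not given here. The adjusted p of Rab3c in the test over the 6 groups was 2.09e-13 to 0.0449 over 8 alternatives and 0.00449 to 0.019 with each of 18 libraries left out. The median log2 fold change of the list stayed within 0.04 to 0.19 in the AP-2ε cKO, and in the OMP cKO it lay between -0.02 and 0.12. Replicate numbers were not taken as pairs, since not every pair of the same number correlated above 0.1. In the AP-2ε line libraries of the same number correlated by -0.339 to 0.206 (mean -0.0895), and those of different numbers had a mean of 0.0456. In the OMP line all same-number correlations were positive, at 0.0354 to 0.565 (mean 0.26), against -0.42 to 0.253 (mean -0.126) for different numbers. Every same-number pair of that line also shared the form of the library name. Pairs of different numbers were at -0.187 to 0.253 within a form and at -0.42 to 0.115 across forms. A shared factor there is a hint from the data and not from the labels. The parts of number and name form in it were not tested. The replicate block changed no other call of the list. Slc32a1, Rph3a, Slc17a7, Doc2a, Cplx1 and Rimbp2 had at most 37 estimated counts per library. In the AP-2ε cKO, where 3 of them were tested, the SE of the log2 fold change was 0.55 for Cplx1, 0.68 for Doc2a and 0.75 for Rimbp2.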

Other observations

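The library titled as an AP-2ε heterozygote but labelled with the genotype of the cKO had Rab3c at 8.65 CPM, Tfap2e at 6.82 CPM, Snap91 at 46.2 CPM, Cacna1a at 5.09 CPM, Rab3d at 131 CPM and Slc17a6 at 65.4 CPM. The labels put it in no group.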
